A study of Zea mays with 54 samples.

Results

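Sucrose synthase and alcohol dehydrogenase genes were followed in maize (Zea mays) roots: sh1 (Zm00001d045042), sus1 (Zm00001d047253) and adh1 (Zm00001d033931), 3 of the 46430 features counted. They were listed by identifier in the B73 RefGen_v4 annotation, for sucrose cleavage without ATP and for the low-oxygen marker adh1; the files give identifiers only, and the symbols are those of the list. All 3 were present in both count tables, and all passed the filter on low counts in each genotype. RNA sequencing covered roots of 9 genotypes: a first count table held SF1, SM1, EP1, F2, F142 and F160, and a second held F7, P415 and P024. Each genotype had 3 libraries grown at low phosphate (low P) and 3 at high phosphate (high P), 54 in all; the labels give no P concentration, plant age or growth medium. Replicates are numbered in the labels with nothing on whether each was a single plant, a pool or a repeat library, so each p-value reflects the spread among libraries, which may be technical. The comparison asked how root transcripts of lines that differ in how they were bred respond to P limitation. Lists of other sucrose-cleaving and fermentation genes could not be matched to identifiers (0 of 12 and 0 of 15 symbols) and are not described.

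Sucrose synthase splits sucrose with UDP into fructose and UDP-glucose and uses no ATP, whereas invertase yields free glucose and fructose that must then be phosphorylated. In maize the Shrunken1 enzyme, encoded by sh1, is best known from the endosperm, and sus1 encodes a second, widely expressed isozyme. Alcohol dehydrogenase 1, encoded by adh1, reduces acetaldehyde to ethanol and so returns NAD+ to glycolysis; its transcript is the classic marker of low oxygen in maize roots, where sh1 transcript is also known to rise. Levels are given as the authors' FPKM, which scales reads to gene length and library total and so lets genes be compared per length. Fold changes are low P over high P.

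A library held 15585904 to 28733284 counts (first table) or 15830403 to 24821387 counts (second table). The members drew 1596 to 117648 counts per library. Of 13 symbols listed for photosynthetic tissue, the 8 plastid ones could be matched, and their summed level reached no more than 0.0868 CPM (counts scaled to the library total) in low P libraries and 0.0642 CPM in high P libraries; none of the 5 root symbols could be matched to an identifier. Some libraries stood apart. The library labelled F7 low P 2 held all 33 transcripts found in P024 and silent in the other F7 libraries, with a median level 0.913 times that in P024; 108 transcripts of the other F7 libraries that were silent in P024 stood there at a median of 0.249 of their F7 level. Among 24447 features with a mean of at least 1 CPM, P024 low P 3 differed more than 4-fold from both other libraries of its group for 2990 and P024 high P 3 for 2113. That number was 1243 for F7 low P 2, 244 for P415 low P 2, 231 for SM1 high P 1, 230 for P024 low P 2 and 222 for F7 high P 1.

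The level of sus1 was higher at low P, by 2.10 to 2.75-fold, in 4 of the 6 genotypes of the first count table. In EP1 it stood at 562, 595 and 573 FPKM at low P, against 290, 231 and 246 FPKM at high P. In F142, where the difference was widest, the low P libraries had 687, 649 and 751 FPKM and the high P libraries 239, 277 and 300 FPKM. In SF1 the values were 488, 515 and 571 FPKM at low P and 217, 274 and 274 FPKM at high P. Low P libraries were above all high P libraries in each of these genotypes. F2 had 513, 644 and 627 FPKM at low P and 353, 311 and 214 FPKM at high P, also without overlap. The log2 fold change of sus1 was 1.46 ± 0.13 in F142, 1.18 ± 0.11 in EP1, 1.16 ± 0.13 in SF1 and 1.07 ± 0.23 in F2 (approximate SE), with adjusted p of 6.02e-05, 8.48e-05, 0.000128 and 0.0138 (edgeR quasi-likelihood test, Benjamini-Hochberg over all features). These calls held without any single library. In bulk root RNA, a change in the number of cells of a type and a change in RNA per cell cannot be told apart.

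In F160 the sus1 level was 599, 601 and 595 FPKM at low P and 569, 474 and 463 FPKM at high P, which did not overlap. Its log2 fold change of 0.35 ± 0.13 did not pass the edgeR test (adjusted p 0.0853) and did pass in DESeq2 (adjusted p 0.00792). SM1 had 541, 381 and 399 FPKM at low P and 444, 228 and 224 FPKM at high P, the highest of which was SM1 high P 1. With that library the log2 fold change of sus1 in SM1 was 0.61 (edgeR adjusted p 0.258), and without it 1.12 (adjusted p 0.0132). F7 had 596, 475 and 634 FPKM at low P and 400, 334 and 334 FPKM at high P, which did not overlap. The F7 log2 fold change of 0.69 ± 0.30 had an edgeR adjusted p of 0.152; without F7 low P 2 it was 0.81 (adjusted p 0.0429), without both F7 low P 2 and F7 high P 1 it was 0.89 (adjusted p 0.0699), and DESeq2 gave 0.69 (adjusted p 0.00763). In P415 and P024 the libraries of both P levels overlapped. P415 had 806, 366 and 662 FPKM at low P and 632, 484 and 441 FPKM at high P; its log2 fold change was 0.26, and 0.52 without P415 low P 2 (edgeR adjusted p 1.0 and 0.563). P024 had 286, 322 and 599 FPKM at low P and 297, 462 and 507 FPKM at high P.

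**Figure D1:**
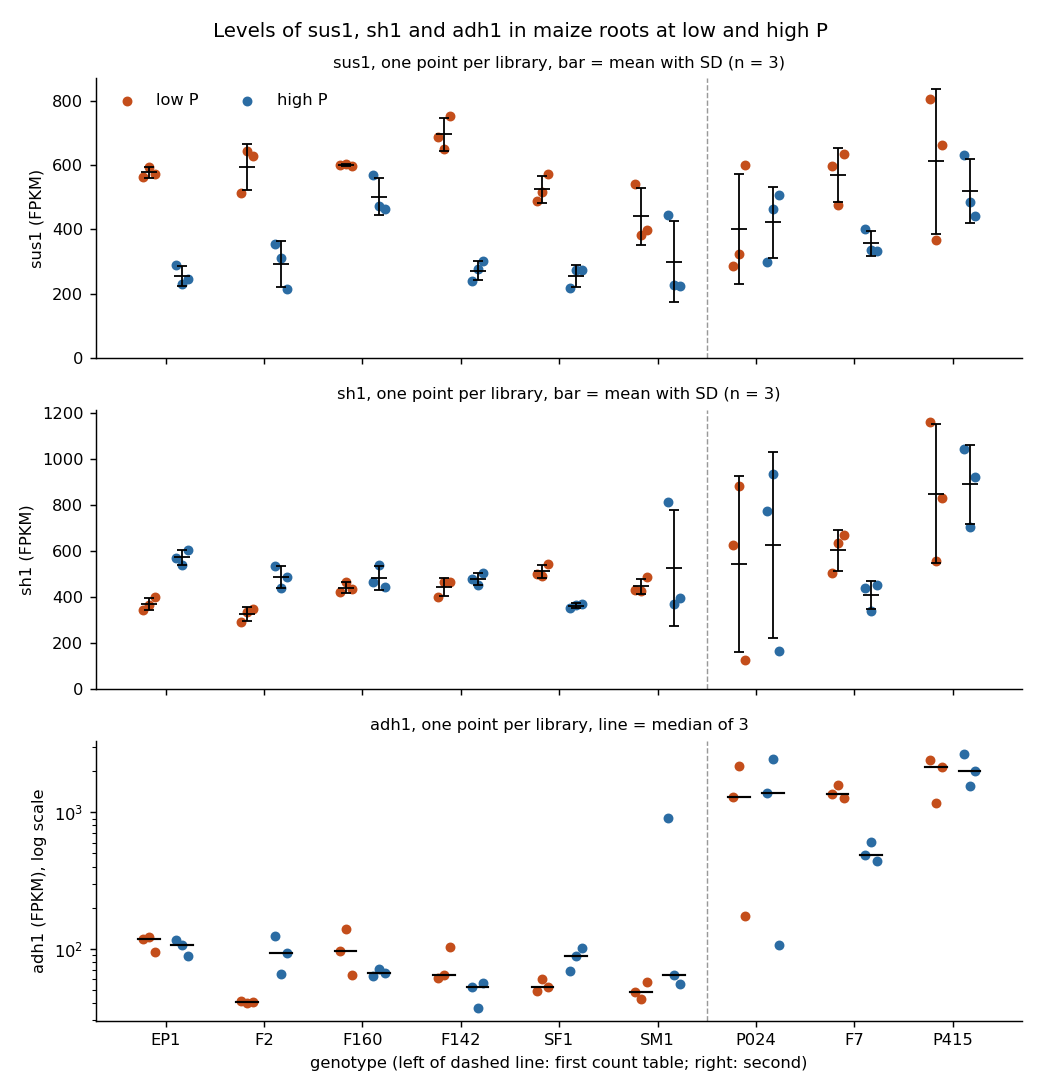
Level of sus1 and sh1 (linear axes, FPKM) and adh1 (log axis, FPKM) in each of 54 root libraries by genotype, low P left of high P, with the mean and SD of 3 libraries for sus1 and sh1 and their median for adh1. The low P libraries of sus1 lie above all high P libraries in EP1, F2, F160, F142, SF1 and F7, while sh1 is lower at low P in EP1 and F2 and higher in SF1 and F7; adh1 lies at 438 FPKM or more in all but 2 libraries of the second table and at 139 FPKM or less in all but 1 of the first.

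The other sucrose synthase gene, sh1, had no common direction. It fell in EP1 to 345, 365 and 399 FPKM at low P, against 571, 541 and 604 FPKM at high P, a log2 fold change of -0.63 ± 0.11 (edgeR adjusted p 0.0022). In SF1 the order of the P levels was the opposite: sh1 rose to 501, 490 and 545 FPKM at low P, against 351, 367 and 371 FPKM at high P. Its log2 fold change there was 0.61 ± 0.10 (edgeR adjusted p 0.000876). Both calls held without any single library. F2 had 293, 335 and 350 FPKM of sh1 at low P and 535, 442 and 488 FPKM at high P, a fall with a log2 fold change of -0.53 ± 0.15 and an edgeR adjusted p of 0.0375. The F2 call was lost without any 1 of the libraries other than high P 2, with adjusted p between 0.0537 and 0.122. It was also lost with the replicate numbers as a block (edgeR adjusted p 0.0691).

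In F160, F142 and P415 the log2 fold change of sh1 lay near 0, at -0.03, 0.0009 and -0.04, and the libraries of both P levels overlapped. Without P415 low P 2 the P415 value was 0.18 (edgeR adjusted p 0.872). F142, with its wide sus1 rise, had 399, 467 and 465 FPKM of sh1 at low P and 478, 451 and 503 FPKM at high P. In F7 sh1 stood at 503, 636 and 670 FPKM at low P and 438, 339 and 451 FPKM at high P. These did not overlap, but the log2 fold change of 0.57 ± 0.31 did not pass the edgeR test (adjusted p 0.232; 0.55 without F7 low P 2, adjusted p 0.18). SM1 had 431, 425 and 485 FPKM of sh1 at low P and 814, 370 and 395 FPKM at high P. The 814 FPKM belonged to SM1 high P 1; with it the log2 fold change was -0.19 (edgeR adjusted p 0.737) and without it 0.38 (adjusted p 0.167). P024 had 625, 880 and 128 FPKM at low P and 774, 935 and 168 FPKM at high P, and in both P levels the lowest value belonged to the library numbered 3.

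The balance between the sucrose synthase genes shifted towards sus1 at low P. In EP1 sh1 made up 39.1 ± 1.74% of the summed FPKM of both genes at low P and 69.2 ± 2.52% at high P (SD, n = 3). F2 had 35.4 ± 1.12% at low P and 62.8 ± 5.87% at high P, and F142 had 39.0 ± 2.62% at low P and 63.8 ± 2.53% at high P. The shift was smaller in SF1, with 49.4 ± 1.05% at low P and 58.9 ± 2.54% at high P, in SM1, with 50.6 ± 5.58% at low P and 63.4 ± 1.44% at high P, and in F160, with 42.4 ± 1.2% at low P and 49.1 ± 4.06% at high P. In these 6 genotypes, all of the first count table, the shares of both P levels did not overlap. SM1 high P 1 did not stand out in this share; its sh1 level was 2.13 times and its sus1 level 1.96 times that of the other high P libraries of SM1.

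In the second count table the share overlapped between P levels in every genotype. It was 51.4 ± 5.74% at low P and 53.3 ± 3.70% at high P in F7, 58.3 ± 2.46% at low P and 63.1 ± 4.23% at high P in P415, and 53.1 ± 30.9% at low P and 54.7 ± 25.9% at high P in P024. Without the libraries numbered 3 the P024 means were 70.9% at low P and 69.6% at high P, and without F7 low P 2 the F7 means were 48.6% at low P and 53.3% at high P. The level of sus1 exceeded that of sh1 in 15 of 18 low P and 2 of 18 high P libraries of the first table, and in 2 of 9 low P and 1 of 9 high P libraries of the second. Averaged over the 9 genotypes, the log2 ratio of sh1 to sus1 was 0.80 lower at low P (difference -0.80, two-sided permutation test of P labels within genotypes, p = 6e-05), and it was lower in 9 of 9 genotypes, or in 8 of 9 when the P024 libraries numbered 3 were left out, where P024 differed by 0.09. The difference was -1.10 in the first table alone (permutation p 1e-05, the smallest these permutations can give) and -0.18 in the second (permutation p 0.498). Without SM1 high P 1 and the P024 libraries numbered 3 it was -0.76 (permutation p 1e-05).

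**Figure D2:**
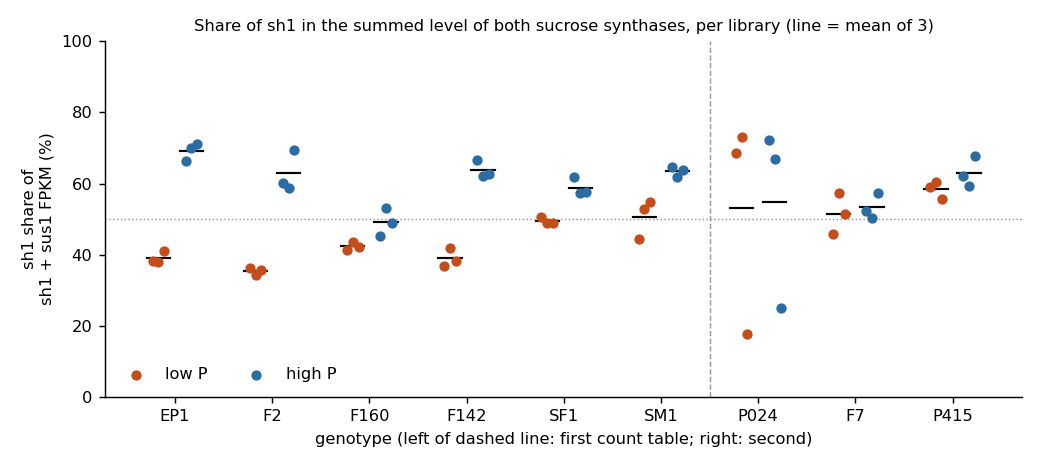
Share of sh1 in the summed FPKM of sh1 and sus1 (percent, linear axis) in each of 54 libraries by genotype, low P left of high P, with the mean of 3 libraries as a solid line and a dotted line at equal shares. The shares do not overlap between P levels in the 6 genotypes of the first count table, with EP1 means of 39.1% at low P and 69.2% at high P, and overlap in the 3 genotypes of the second.

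The summed level of both genes averaged 1037 ± 69.3 FPKM at low P and 618 ± 43.3 FPKM at high P in SF1 (SD, n = 3). It was 1139 ± 67.3 FPKM at low P and 749 ± 47.0 FPKM at high P in F142, and 1171 ± 115 FPKM at low P and 765 ± 84.2 FPKM at high P in F7. In EP1, where sh1 fell and sus1 rose, the sum was 946 ± 34.7 FPKM at low P and 827 ± 48.8 FPKM at high P. In F160 it was 1040 ± 24.9 FPKM at low P and 985 ± 69.5 FPKM at high P. F2 had 921 ± 99.5 FPKM at low P and 781 ± 96.2 FPKM at high P. In P415 the sum was 1460 ± 522 FPKM at low P and 1409 ± 246 FPKM at high P. SM1 had 887 ± 82.8 FPKM at low P and 825 ± 375 FPKM at high P, with 1258 FPKM in SM1 high P 1. Only in P024 was the mean sum lower at low P, at 947 ± 240 FPKM against 1048 ± 362 FPKM at high P. These sums were not tested.

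The fermentation gene adh1 moved in both directions within the first count table. In F2 it fell to 41.3, 40.0 and 40.7 FPKM at low P, against 125, 65.2 and 93.5 FPKM at high P, a log2 fold change of -1.16 ± 0.22 (edgeR adjusted p 0.0081). In SF1 it fell to 49.0, 60.3 and 52.0 FPKM at low P, against 68.4, 87.8 and 100.8 FPKM at high P, a log2 fold change of -0.55 ± 0.15 (edgeR adjusted p 0.0136). In F142 it rose to 61.6, 64.5 and 104 FPKM at low P, against 52.6, 36.8 and 56.0 FPKM at high P, a log2 fold change of 0.76 ± 0.23 (edgeR adjusted p 0.0243). The libraries of both P levels did not overlap in these genotypes. The F2 call held without any single library. The SF1 call was lost without low P 1 or low P 3, with edgeR adjusted p of 0.0536 and 0.0503, and the F142 call without high P 2 or low P 3, with 0.0651 and 0.0697.

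EP1 had 118, 122 and 94.7 FPKM of adh1 at low P and 116, 106 and 87.8 FPKM at high P, which overlapped. F160 had 96.5, 139 and 63.8 FPKM at low P and 63.2, 70.5 and 66.3 FPKM at high P, a log2 fold change of 0.68 ± 0.26 (edgeR adjusted p 0.106; 0.92 without low P 3, adjusted p 0.0127; 0.68 in DESeq2, adjusted p 0.0453). In SM1 the low P libraries had 47.8, 42.6 and 57.0 FPKM and the high P libraries 906, 64.6 and 55.3 FPKM, which overlapped. The 906 FPKM of SM1 high P 1 were 15.1 times the mean of the other 2 high P libraries. With this library the log2 fold change of adh1 in SM1 was -2.83 ± 1.13 (edgeR adjusted p 0.0945), and without it -0.13 (adjusted p 0.559).

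In F7 adh1 rose to 1365, 1583 and 1277 FPKM at low P, against 483, 602 and 438 FPKM at high P, without overlap and with a log2 fold change of 1.47 ± 0.31 (edgeR adjusted p 0.015). Without F7 low P 2 the log2 fold change was 1.39 (adjusted p 0.00643), and without F7 low P 2 and F7 high P 1 together 1.34 (adjusted p 0.0194). Leaving out high P 1, 2 or 3 of F7 gave edgeR adjusted p of 0.0748, 0.0539 and 0.0773. P415 had 2421, 1174 and 2135 FPKM at low P and 2677, 1561 and 2006 FPKM at high P, a log2 fold change of -0.10, and of 0.15 without P415 low P 2 (edgeR adjusted p 1.0 and 0.904). P024 had 1304, 2196 and 174 FPKM at low P and 1377, 2449 and 106 FPKM at high P. In both of these genotypes the libraries of the P levels overlapped. For P024 the log2 fold changes of sus1, sh1 and adh1 were -0.03, -0.11 and -0.0064 (edgeR adjusted p 1.0 each), and without both libraries numbered 3 they were -0.23, -0.10 and -0.03 (adjusted p 0.839, 0.941 and 0.984).

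**Figure D3:**
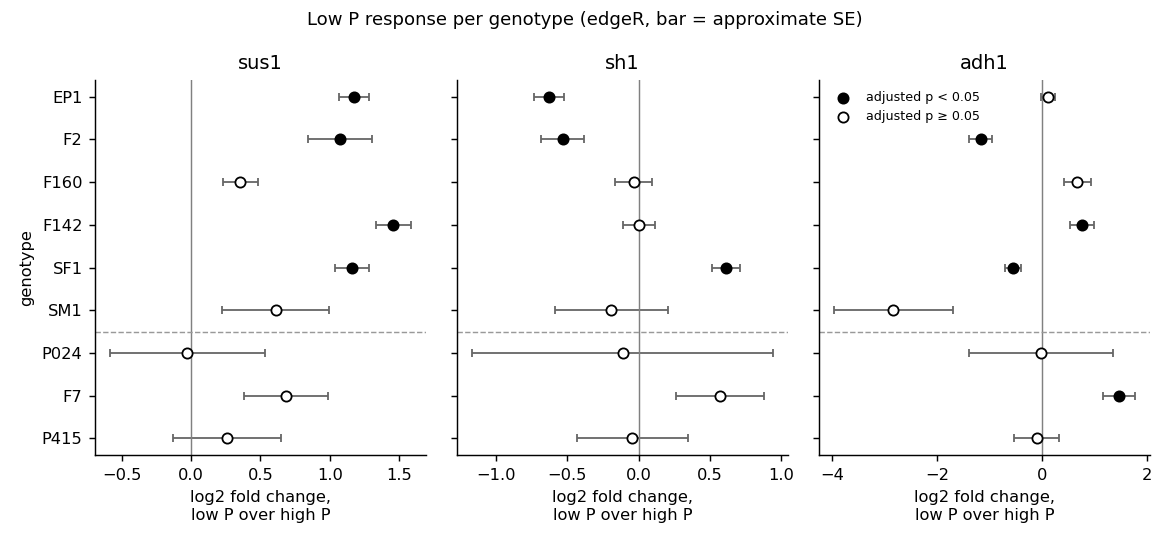
Log2 fold change of sus1, sh1 and adh1, low P over high P (linear axes, a different range for each gene), in each genotype; bars are the approximate SE and filled points passed an adjusted p of 0.05 in edgeR, with the second count table below the dashed line. The filled points of sus1 all lie above 0, at 1.07 to 1.46, while those of sh1 and adh1 lie on both sides.

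By genotype, the edgeR test called 3 of the 3 members in F2, where 30.3% of all tested features were called, and 3 of 3 in SF1, where 54.9% were. It called 2 of 3 in EP1 against 42.8% of features and 2 of 3 in F142 against 50.3%. In F7 1 member was called, against 22.9% of features. In F160, SM1 and P415, where 22.8%, 33.0% and 0.204% of features were called, no member passed. In P024 edgeR called 0% of 23864 features, while 269 features had an unadjusted p below 0.05; DESeq2 called 2 features. With only 3 members, these counts are given beside the background and nothing is read from them. The 4 sus1 calls also held when the spread was shared over all 54 libraries, whereas the calls of sh1 in EP1, F2 and SF1 and of adh1 in F2, F142, SF1 and F7 had edgeR adjusted p between 0.112 and 0.645. In that fit sus1 in F7 (adjusted p 0.0322) and adh1 in SM1 (adjusted p 0.00592) also passed. The biological coefficient of variation of the genotypes, fitted one at a time, ran from 0.14 in SF1 to 0.599 in P024.

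Averaged over the 9 genotypes, the log2 fold change of sus1 was 0.76 ± 0.08 (edgeR adjusted p 1.06e-09), where 38.7% of all tested features were called, and its sign was positive in 8 of the 9. That of sh1 was -0.03 ± 0.14 and that of adh1 -0.17 ± 0.24, with edgeR adjusted p of 1.0 and 0.683. Within the first table alone the sus1 average was 0.97 (edgeR adjusted p 1.55e-10, with 59.4% of features called). In the second it was 0.31 (adjusted p 0.548, with 4.33% of features called). For sh1 the average was -0.13 in the first table (edgeR adjusted p 0.169) and 0.14 in the second, and for adh1 -0.50 (adjusted p 0.069) and 0.46 (adjusted p 0.752). The averages of sh1 and adh1 over 9 genotypes were 0.036 and 0.13 without SM1 high P 1.

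A test that all 9 low P responses are equal passed for sus1 (edgeR adjusted p 0.00758) and adh1 (0.0336) but not for sh1 (0.587), with 42.3% of features called. With the replicate numbers as a block it passed for sh1 as well (edgeR adjusted p 0.00917). The responses of sh1 did differ among the 6 genotypes of the first table alone (edgeR adjusted p 0.00756, with 58.2% of features called), where EP1 and SF1 moved in opposite directions. Without the P024 libraries numbered 3 the test over 9 genotypes gave 0.0122 for sh1. For sus1 and adh1 it gave 0.0288 and 0.00475 in the first table alone and 0.828 and 0.802 in the second. Without SM1 high P 1 the adh1 difference over 9 genotypes no longer passed (edgeR adjusted p 0.183), nor did it without replicate 1 or 2 of every group (0.867 and 0.232). The adjusted p of sus1 was 0.0507, 0.262 and 0.0915 without replicate 1, 2 or 3 of every group. Set against the mean of the other 8 genotypes, the adh1 response of SM1 differed by -2.98 ± 0.80 on the log2 scale (edgeR adjusted p 0.0169, with 7.04% of features called), and by -0.29 without SM1 high P 1 (adjusted p 1.0). The other 26 such comparisons of a member in a genotype had edgeR adjusted p of 0.0544 or more.

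The levels of the members also differed between genotypes within the first table. At low P the mean sus1 level was lowest in SM1 (440 ± 87.6 FPKM) and highest in F142 (696 ± 51.3 FPKM; SD, n = 3), and only F142 stood clear of its neighbour, F160 (599 ± 3.02 FPKM). At high P the order was another, with 502 ± 58.1 FPKM in F160 and 255 to 299 FPKM in the other 5 genotypes. The F160 libraries lay above all of SM1, its neighbour, while from SF1 over EP1, F142 and F2 to SM1 neighbours overlapped. For sh1 SF1 was the highest genotype at low P (512 ± 29.1 FPKM), clear of SM1, and the lowest at high P (363 ± 10.6 FPKM), clear of F142. The lowest sh1 mean at low P was in F2 (326 ± 29.6 FPKM), overlapping EP1, and the highest at high P in EP1 (572 ± 31.4 FPKM). For adh1 the lowest mean at low P was in F2 (40.7 ± 0.651 FPKM), clear of SM1 (49.2 ± 7.28 FPKM), and the highest in EP1 (112 ± 14.8 FPKM). At high P adh1 was lowest in F142 (48.5 ± 10.3 FPKM), clear of F160 (66.7 ± 3.63 FPKM), and highest, apart from SM1, in EP1 (103 ± 14.3 FPKM). In the second table neighbours overlapped for all 3 members at both P levels. Without F7 low P 2, F7 high P 1 and the P024 libraries numbered 3, F7 and P024 each had 2 libraries per P level. P024 was then clear of P415 in sus1 at low P, with at most 322 FPKM in P024 and at least 366 FPKM in P415. At high P F7 was then clear of P024, with at most 451 FPKM of sh1 in F7 and at least 774 FPKM in P024, and at most 602 FPKM of adh1 in F7 and at least 1377 FPKM in P024.

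A test of equal level in the 6 genotypes of the first table passed at low P for sh1 (edgeR adjusted p 0.046) and not for sus1 (0.152) or adh1 (0.137), where 80.7% of features passed. The test at each P level took its spread from all libraries of the table, at low and high P. The low P tests of sus1 and adh1 passed when the high P library SM1 high P 1 was left out, with 0.0131 and 1.14e-05. At high P all 3 members passed (edgeR adjusted p of 0.000786 for sus1, 0.0334 for sh1 and 0.000179 for adh1), as did 89.2% of features. In the second table the 3 genotypes had edgeR adjusted p of 0.481 (sus1), 0.787 (sh1) and 0.881 (adh1) at low P, where 18.8% of features were called, and of 0.519, 0.438 and 0.233 at high P, where 28.6% were. Without F7 low P 2, F7 high P 1 and the P024 libraries numbered 3 the adh1 level differed at high P (adjusted p 0.00967). In that setting the levels of sus1 at low P and of sh1 at high P did not pass (edgeR adjusted p 0.131 and 0.0538).

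Between pairs of genotypes at high P, F142 had less sus1 than F160 (log2 fold change -0.88 ± 0.13, edgeR adjusted p 0.00106) and less adh1 (-0.45 ± 0.15, adjusted p 0.042), where 44.0% of features were called. The adh1 difference was lost in 5 of the 6 fits that leave out 1 library, all but the one without F142 high P 3, with adjusted p up to 0.115. F7 had less sh1 than P415 (-1.16 ± 0.26, edgeR adjusted p 0.00819) and less adh1 (-2.07 ± 0.30, adjusted p 0.00124), where 43.2% of features were called, and sus1 did not pass (-0.59 ± 0.24, adjusted p 0.0816). Without F7 high P 1 these were -1.19 (sh1, edgeR adjusted p 0.0232), -2.01 (adh1, 0.00541) and -0.65 (sus1, 0.115). For EP1 against F2, where 32.8% of features were called, the log2 fold changes of sus1, sh1 and adh1 were -0.23, 0.19 and 0.09, with edgeR adjusted p between 0.412 and 0.803. For SF1 against SM1, where 36.7% were called, they were -0.34, -0.64 and -2.18, with edgeR adjusted p between 0.179 and 0.49. When SM1 high P 1 was left out the adh1 level of SF1 was higher than that of SM1 (log2 fold change 0.51, edgeR adjusted p 0.0416), and sus1 and sh1 had 0.16 and -0.084 (adjusted p 0.397 and 0.612).

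The level of adh1 lay in separate ranges in the count tables. Leaving out the P024 libraries numbered 3, adh1 lay between 438 and 2677 FPKM in the 16 other libraries of the second table, with a median of 1469 FPKM. Leaving out SM1 high P 1, it lay between 36.8 and 139 FPKM in the 35 other libraries of the first, with a median of 64.6 FPKM. By mean FPKM adh1 ranked 20 among all features in the second table and 1038 in the first. For sh1 the ranks were 73 in the second table and 98 in the first, and sus1 ranked 108 over both. Genotype and count table cannot be told apart here, since no genotype was in both, and levels were not tested across tables.

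Within groups, adh1 and sh1 deviated together. P024 low P 3 had 0.0993 times the adh1 level and 0.17 times the sh1 level of the other low P libraries of P024, and P024 high P 3 had 0.0557 and 0.197 times those of the other high P libraries. The sus1 level was not low in them, at 1.97 times that of the others at low P and 1.33 times at high P. SM1 high P 1 had 15.1 times the adh1 level of its group, 2.13 times the sh1 level and 1.96 times the sus1 level. Taken as deviations from the group mean of log2 CPM over 54 libraries, sh1 and adh1 had a Pearson r of 0.90 (permutation within groups, p = 0.0001, adjusted over 3 pairs 0.0003) and a Spearman rho of 0.63 (p = 0.00069, adjusted 0.00207).

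Without the 2 libraries farthest from the median in sh1, the P024 libraries numbered 3, the r of sh1 and adh1 was 0.79 (permutation p 0.00088, adjusted 0.00264), and without SM1 high P 1 as well 0.54 (p 0.00542, adjusted 0.0163). It was 0.89 in the first table alone (permutation p 0.00986, adjusted 0.0296) and 0.97 in the second (p 0.0024, adjusted 0.0072). For sh1 and sus1 the r was 0.06 (rho 0.20, permutation p 0.778 and 0.269, adjusted 0.778 and 0.305), and for sus1 and adh1 0.23 (rho 0.19, permutation p 0.422 and 0.305, adjusted 0.634 and 0.305). In the first table alone these were 0.72 and 0.73 (both with an adjusted permutation p of 0.0688), and in the second -0.17 and -0.18 (both 0.569). Without SM1 high P 1 and the P024 libraries numbered 3 they were 0.55 and 0.46, both with an adjusted permutation p of 0.0219. With only the P024 libraries numbered 3 left out, the r of sh1 and sus1 was 0.72 (permutation p 0.00327, adjusted 0.0049). For sus1 and adh1 the 2 farthest libraries were SM1 high P 1 and P415 low P 2. Their r without these was -0.21 (permutation p 0.445, adjusted 0.445). The libraries named here also stood apart for many other features, as given above, and the part of that in these correlations was not tested.

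**Figure D4:**
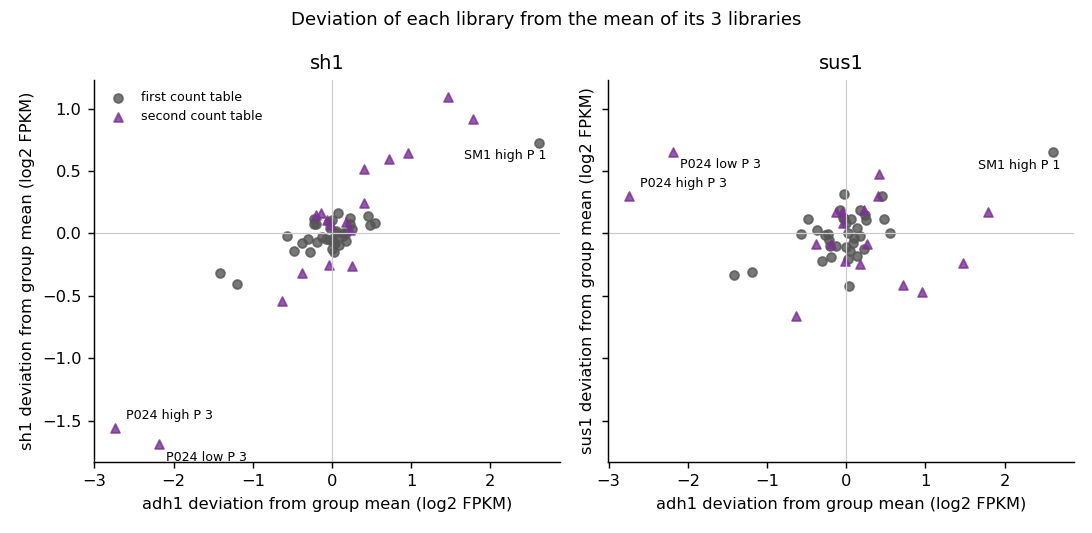
Deviation of each of 54 libraries from the mean of its group of 3 (log2 FPKM, linear axes), sh1 and sus1 on the vertical axes against adh1 on the horizontal axis, circles for the first and triangles for the second count table; the correlations in the text use log2 CPM. The sh1 points rise with adh1, from the P024 libraries numbered 3 at the lower left to SM1 high P 1 at the right, while in sus1 the P024 libraries numbered 3 lie above 0.

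Across the 54 profiles, after the mean of each count table was subtracted, sh1 was at rank 22 of 24446 features by likeness to adh1 (Pearson r 0.81), while sus1 was at rank 8712 (r 0.10). In the first table alone sh1 was at rank 220 (r 0.54) and in the second at rank 9 (r 0.96). These profiles include SM1 high P 1 and the P024 libraries numbered 3, and no rank was computed without them. Without them, the within-group r given above was 0.54 for sh1 and adh1 and 0.46 for sus1 and adh1. The features most like adh1 were Zm00001d009118 and Zm00001d046055, with r of 0.90 and 0.89. Those most like sh1 were Zm00001d018798 and Zm00001d004812 (r 0.90 and 0.89), and those most like sus1 Zm00001d037278 and Zm00001d035973 (r 0.85 and 0.84). These values describe likeness over libraries that share depth and groups, and the files give no name for these features.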

How the data were processed

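RNA-seq libraries of total root RNA were made with an Ultra RNA kit, per the labels' protocols; whether strand was kept is not stated. Fastp, HISAT2, HTSeq and the B73 RefGen_v4 build are named in the submitters' processing notes, with versions not given in the sources used here. The authors deposited raw counts per gene and FPKM values, each in 2 tables; dividing counts by gene length and total gave every FPKM value above 0 to within 0.001 of its size. Levels are the deposited FPKM, and tests used the counts.

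Each genotype was fitted alone with edgeR 4.0.16 (R 4.3.3; filterByExpr, TMM, quasi-likelihood F-test of low P over high P), with Benjamini-Hochberg adjustment over all features tested and a threshold of 0.05. SE was approximated by dividing the size of the log2 fold change by the root of F. Averages and tests of equal response used 1 model of all 54 libraries, and levels were tested within tables. DESeq2 1.42.0 and limma 3.58.1 served as alternatives. The ratio of sh1 to sus1 and the within-group correlations were tested by 100000 permutations within genotypes or groups. Scripts were tested on simulated data.

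Same-numbered libraries of both P levels had correlated deviations, all over 0.1, in F160 (0.103 to 0.192), P024 (0.413 to 0.780) and P415 (0.124 to 0.293). The labels do not state such pairs. A high P library with another number correlated more highly with P024 low P 2 (0.567 against 0.413) and P415 low P 3 (0.183 against 0.124). The values reported for these genotypes come from fits without pairs. Taking the numbers as a block in an alternative fit changed no call there. In F2 the same-numbered correlations were 0.0913, 0.0683 and 0.108, each above those with another number. The block fit lost the sh1 call in F2 (edgeR adjusted p 0.0691). Features named as most alike were the 2 with the highest Pearson r for each member. Members, gene lists and tests were chosen with earlier results of these data known, and some of the settings that leave out SM1 high P 1, the P024 libraries numbered 3 or the F7 libraries low P 2 and high P 1 together were added after seeing the data.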

Additional observations from a re-analysis of the deposited data

Results flagged for a closer look

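The low P response of sus1 differed between the 9 genotypes (edgeR adjusted p 0.00758, with 42.3% of features called). Its log2 fold changes ran from -0.03 in P024 to 1.46 in F142. The sus1 test no longer passed without replicate 1, 2 or 3 of every group (edgeR adjusted p 0.0507, 0.262 and 0.0915). For sus1 it gave 0.0288 in the first table alone and 0.828 in the second. The response of adh1 differed as well (edgeR adjusted p 0.0336), from -2.83 in SM1 to 1.47 in F7. When SM1 high P 1 was left out the SM1 value was -0.13 and the test no longer passed (edgeR adjusted p 0.183), and limma-voom gave 0.216. Within the first count table alone the sh1 response differed between the 6 genotypes (edgeR adjusted p 0.00756), from -0.63 in EP1 to 0.61 in SF1. The adh1 response of SM1 differed from the mean of the other 8 genotypes by -2.98 on the log2 scale (edgeR adjusted p 0.0169), and by -0.29 without SM1 high P 1 (adjusted p 1.0).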

How the results depend on the processing

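Of 559 alternative values for 62 results, 458 kept their direction and side of the threshold, 37 no longer passed it, 18 newly passed and 46 had the other sign; the cause was not tested. DESeq2 gave no adjusted p for adh1 in SM1, which is not counted. In 1 model of 54 libraries the log2 fold changes of sh1 in EP1, F2 and SF1 (-0.62, -0.51, 0.62) and of adh1 in F2, F142, SF1 and F7 (-1.14, 0.77, -0.55, 1.46) no longer passed, adh1 in SM1 (-2.82) and sus1 in F7 (0.68) did, and adh1 in P024 was 0.034. With the replicate block, sh1 was -0.53 in F2 (adjusted p 0.0691) and -0.0012 in F142, adh1 was 0.22 in P024 and 0.019 on average, and the test of equal sh1 responses gave 0.00917; the block changed no other call. DESeq2 called sus1 in F160 (0.35) and F7 (0.69) and adh1 in F160 (0.68). DESeq2 and RLE scaling gave -0.0038 for sh1 in F142 and 0.034 for adh1 in P024, scaling by totals gave -0.11 for sh1 in F142, and no filter gave 0.0071 for adh1 in P024. Scaling by totals moved the median of all features by -0.118 in SF1 and -0.106 in F142, and by less than 0.1 in size in the other 7 genotypes. In the second table alone the averages were 0.14 (sh1), 0.31 (sus1) and 0.46 (adh1), equal response gave 0.828 (sus1) and 0.802 (adh1), the ratio differed by -0.18, and sus1 deviations had r of -0.174 with sh1 and -0.176 with adh1. In the first table alone equal sh1 response gave 0.00756. Without SM1 high P 1 the averages were 0.036 (sh1) and 0.13 (adh1), equal adh1 response gave 0.183, the adh1 response of SM1 against the others was -0.29, and equal level at low P gave 0.0131 (sus1) and 1.14e-05 (adh1). Equal sh1 response gave 0.0116 without P024 and the F7 libraries low P 2 and high P 1, and 0.0122 without the P024 libraries numbered 3; limma-voom gave 0.216 for adh1. Without both F7 libraries and the P024 libraries numbered 3, equal adh1 level at high P in the second table gave 0.00967. Without SM1 high P 1 and the P024 libraries numbered 3 the r of sus1 was 0.553 with sh1 and 0.463 with adh1. Without the 2 farthest libraries of each pair it was 0.720 with sh1 (the P024 libraries numbered 3 left out) and -0.208 with adh1 (SM1 high P 1 and P415 low P 2 left out). Leaving out 1 library at a time, the log2 fold change of sh1 ranged from -0.59 to -0.46 in F2, -0.091 to 0.052 in F160, -0.065 to 0.074 in F142, -0.43 to 0.38 in SM1, -0.68 to 0.38 in P024 and -0.31 to 0.18 in P415. That of sus1 ranged from 0.40 to 1.12 in SM1, -0.28 to 0.13 in P024 and 0.58 to 0.81 in F7. That of adh1 ranged from 0.35 to 0.92 in F160, 0.49 to 0.90 in F142, -0.68 to -0.41 in SF1, -0.76 to 0.77 in P024, 1.39 to 1.64 in F7 and -0.28 to 0.15 in P415. Without 1 replicate number the averages ranged from -0.10 to 0.078 (sh1) and -0.28 to 0.18 (adh1), and equal response from 0.0507 to 0.262 (sus1) and 0.0163 to 0.867 (adh1). At high P, SF1 against SM1 ranged from -0.54 to 0.16 (sus1) and -2.70 to 0.51 (adh1), EP1 against F2 from -0.11 to 0.34 (adh1), and F142 against F160 from -0.061 to 0.074 (sh1) and -0.58 to -0.29 (adh1).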
